A study of Rattus norvegicus with 8 samples.

Results

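Cpa1 and Ctrb1 encode a pair of digestive proteases best known from the exocrine pancreas, and their transcripts were measured here in the rat ovary. The members are the probe sets annotated to exactly 1 of these symbols. They were 2 of the 31042 probe sets that are not Affymetrix controls, 1 per gene, and 2 of the 14217 genes measured under 1 symbol. The pair was chosen by its measured difference between DHT and CTL on these same arrays, so that difference is given as a description, with no test.

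The ovaries came from female Sprague-Dawley rats. DHT rats carried a silicone capsule that released 83 µg of 5α-dihydrotestosterone (DHT), a potent androgen that aromatase cannot turn into estrogen, per day for 12 weeks, and CTL rats carried an empty capsule for the same time. All animals were 15 weeks old when ovarian cortex was taken, and 3 DHT and 3 CTL animals had an array each. A further array per group held equal amounts of RNA of the 3 animals of that group, so it is no independent replicate. DHT treatment serves as a model of the high androgen state of polycystic ovary syndrome, and the study's methods state that corpora lutea were few or absent in DHT ovaries and present in most CTL ovaries.

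Acinar cells of the pancreas make digestive enzymes, and the proteases among them are made as inactive precursors, which trypsin activates in the gut. Carboxypeptidase A1, the product of Cpa1, is a zinc enzyme that removes amino acids from the carboxyl end of proteins. Chymotrypsinogen B1, the product of Ctrb1, is the precursor of a serine protease that cuts within proteins, after large and mostly aromatic residues. In the pancreas the genes of this group are switched on together by PTF1, a complex of the factors Ptf1a and Rbpjl with an E protein, which reads an E-box next to a TTTCCCA-type element.

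The 250 bases before each gene start are shown because they are where such shared elements of pancreatic genes usually lie. They are RefSeq sequences of GRCr8, at chr4:60224551-60224800 on the + strand for Cpa1 and chr19:56566979-56567228 on the - strand for Ctrb1. Capitals mark each E-box (CANNTG) and each TTTCCCA.
Cpa1: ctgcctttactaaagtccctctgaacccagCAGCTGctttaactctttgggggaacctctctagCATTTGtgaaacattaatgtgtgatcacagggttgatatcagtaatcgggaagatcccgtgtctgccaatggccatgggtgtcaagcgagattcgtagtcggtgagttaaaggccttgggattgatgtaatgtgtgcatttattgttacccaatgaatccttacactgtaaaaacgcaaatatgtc
Ctrb1: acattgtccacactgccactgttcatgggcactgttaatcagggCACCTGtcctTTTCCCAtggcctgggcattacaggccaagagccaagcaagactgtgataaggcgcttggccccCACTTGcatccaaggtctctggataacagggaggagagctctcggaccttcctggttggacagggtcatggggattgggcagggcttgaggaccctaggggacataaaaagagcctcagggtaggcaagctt

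Both sequences held an E-box, at -220 and -186 in Cpa1 and at -206 and -132 in Ctrb1, counted from the gene start to the first base of the element. An E-box was present in 65.2% of 27457 promoters of that length, searched on both strands. TTTCCCA began at -196 in Ctrb1, was not found in Cpa1, and was present in 7.01% of promoters. In Ctrb1 the E-box CACCTG and TTTCCCA were separated by 4 bases. An E-box followed after 3 to 6 bases by TTTCCCA was found in 27 promoters (0.0983%), with Ctrb1 among them and neither Cpa1 nor any of 24 promoters of other acinar genes. That spacing was set with the Ctrb1 sequence in view. The half-site AGAACA of the androgen receptor was in neither sequence, against 17.1% of promoters, and AAGGTCA, a site type of the steroidogenic factors SF-1 and LRH-1, was in neither, against 3.77%. Of the GATA-type sites, AGATAA (10% of promoters) was in neither sequence, and TGATAA (7.87%) lay at -151 in Ctrb1. TATAAA (13.1%) was in neither sequence, and ATAAAA (18.6%) lay at -29 in Ctrb1. A match describes the letters of these windows, and binding was not measured.

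Expression values are log2 units per probe set from GCRMA, a method that corrects each probe for background by its base composition. The median over all probe sets was 2.97 to 3.03 on 7 arrays and 3.25 on CTL replicate 3, which stood apart, with Pearson r of 0.866 to 0.907 across probe sets with the other arrays. A background level was taken on each array from 41 probe sets of receptors for smell, pheromones and taste, as their 95th percentile. It was 2.65 to 2.69 on the DHT arrays and 2.62 to 3.07 on the CTL arrays. A probe set at or below this level is called near background. Gapdh has control probe sets at both ends of its mRNA, and the 3' value exceeds the 5' value the more the labelled RNA is short at its 5' end. This log2 excess was 2.99 to 3.98 on the DHT replicates, against 0.39 and 0.62 on CTL replicates 1 and 2 and 3.49 on CTL replicate 3.

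Cpa1 was abundant in the ovaries of every DHT animal. Its log2 value was 9.3, 8.4 and 10.77 on DHT replicates 1, 2 and 3, against 4.17, 5.01 and 4.2 on CTL replicates 1, 2 and 3. The groups did not overlap, and the lowest DHT animal lay 3.4 above the highest CTL animal. The mean was 9.49 ± 1.19 in DHT and 4.46 ± 0.48 in CTL ovaries (SD, n = 3 each), a difference of 5.03 or 32.7-fold. Cpa1 was above the background level on all 8 arrays, by 5.76 to 8.09 on the DHT replicates and by 1.13 to 2.39 on the CTL replicates.

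Ctrb1 was high in the DHT ovaries and close to background in the CTL ovaries. Its log2 value was 7.97, 7.83 and 5.8 on DHT replicates 1, 2 and 3, against 2.99, 3.18 and 2.73 on CTL replicates 1, 2 and 3. Again the groups did not overlap, with a gap of 2.61 between the lowest DHT and the highest CTL animal. The mean was 7.2 ± 1.22 in DHT and 2.97 ± 0.23 in CTL ovaries (SD, n = 3 each), a difference of 4.23 or 18.8-fold. Ctrb1 lay 3.12 to 5.29 above the background level on the DHT replicates. On the CTL replicates it was 0.28 and 0.56 above it on replicates 1 and 2 and 0.34 below it on replicate 3, so the fold is measured against values near the lower end of the scale.

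**Figure D1:**
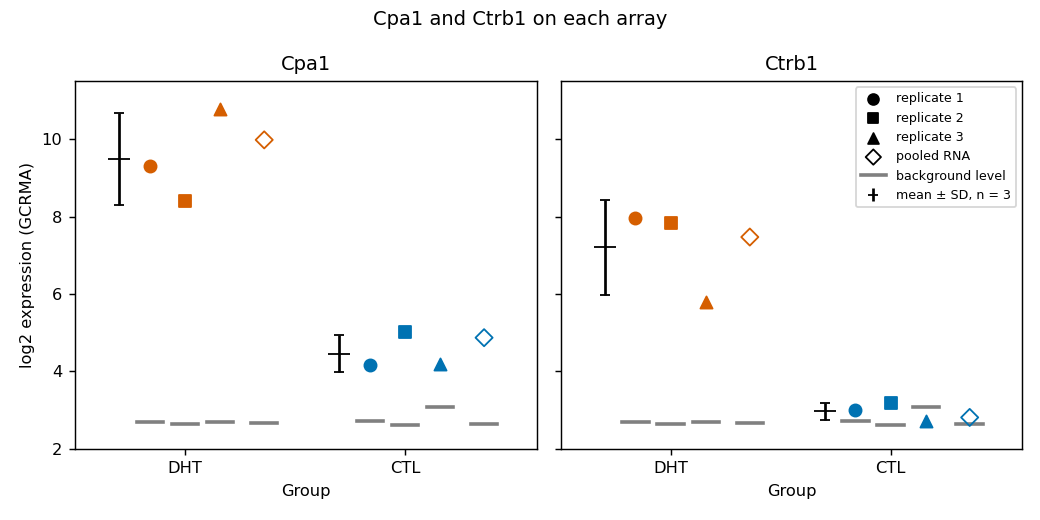
Log2 expression of Cpa1 and Ctrb1 on each array, DHT left of CTL, with single animals as points, the mean and SD of 3 animals, the arrays of pooled RNA as open symbols, and each array's background level as a grey bar. The DHT animals sit between 8.4 and 10.77 for Cpa1 and between 5.8 and 7.97 for Ctrb1, above every CTL animal.

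These are the largest differences of means towards higher values in DHT among the 31042 probe sets, with Cpa1 first and Ctrb1 second, which is how the pair came to be chosen. Of all probe sets 1.03% were called by limma in either direction, and 17.5% did not overlap between the groups, with 10.6% higher in every DHT animal. The median difference over all probe sets was -0.029. In whole tissue, more cells of a type and more RNA per cell cannot be told apart. The difference was close to the same size without the array that stood apart, at 4.9 for Cpa1 and 4.11 for Ctrb1 without CTL replicate 3. Against CTL replicate 3 alone it was 5.29 for Cpa1 and 4.47 for Ctrb1. The part of the Gapdh 3' to 5' difference in these values was not tested.

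On the arrays of pooled RNA both genes were again higher in DHT. Cpa1 was 9.98 on the pooled DHT array and 4.87 on the pooled CTL array, a difference of 5.11 or 34.5-fold. Ctrb1 was 7.47 on the pooled DHT array and 2.81 on the pooled CTL array, a difference of 4.66 or 25.3-fold. The logarithm of the mean of the animals' linear values, which a pool of equal amounts should approach, was 9.82 in DHT and 4.51 in CTL for Cpa1, and 7.48 in DHT and 2.98 in CTL for Ctrb1. The pools repeat the same animals' RNA on a further array and add no animal.

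Within the DHT group the transcripts did not follow each other. DHT replicate 3 had the highest Cpa1 value and the lowest Ctrb1 value of the 3 animals. Relative to the DHT mean, Cpa1 was -0.19, -1.09 and 1.28 on replicates 1, 2 and 3, and Ctrb1 was 0.78, 0.63 and -1.4. The animals spanned 2.36 (5.14-fold) for Cpa1 and 2.18 (4.52-fold) for Ctrb1 in DHT, against 0.84 (1.79-fold) for Cpa1 and 0.45 (1.37-fold) for Ctrb1 in CTL. Of all 31042 probe sets 52 (0.168%) spanned more than Cpa1 over the DHT animals, and 78 (0.251%) spanned more than Ctrb1. These shares include 9893 probe sets near background on all 8 arrays, which can span little, so they would be larger among expressed probe sets. In CTL ovaries replicate 2 was the highest for both genes, at 0.55 above the mean for Cpa1 and 0.22 for Ctrb1. Ctrb1 lay 0.28, 0.56 and -0.34 from the background level on CTL replicates 1, 2 and 3. Its CTL range and order are thus read near the lower end of the scale, where little spread can show.

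**Figure D2:**
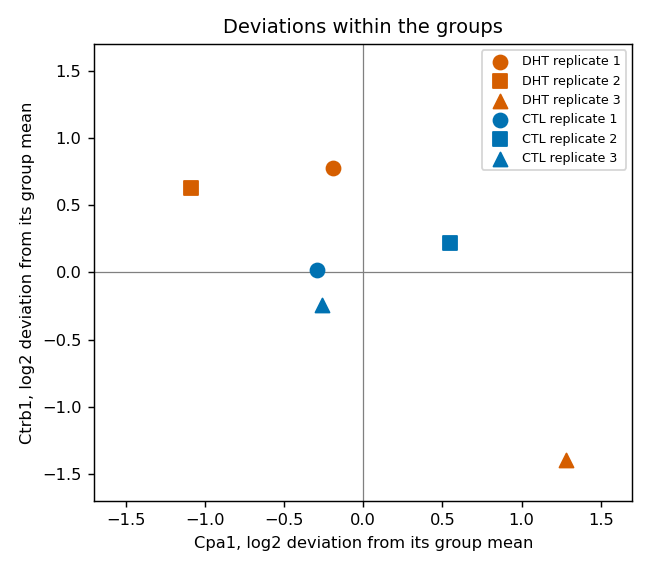
Deviation of each animal from its own group's mean, in log2 units, with Cpa1 on the horizontal and Ctrb1 on the vertical axis. DHT replicate 3 lies at 1.28 for Cpa1 and -1.4 for Ctrb1, and DHT replicates 1 and 2 lie below 0 for Cpa1 and above 0 for Ctrb1.

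A correlation over all 6 animals would mostly restate the gap between the groups, and 3 animals per group are too few for one, so how the genes vary together cannot be tested here. DHT replicate 3 was at an extreme for many genes. Of 507 genes that spanned 1 or more over the DHT animals, DHT replicate 3 was the highest for 227 (44.8%) and the lowest for 275 (54.2%). The order of Cpa1 (replicates 3, 1, 2) was shared by 119 of them (23.5%) and that of Ctrb1 (replicates 1, 2, 3) by 96 (18.9%). The Gapdh 3' to 5' difference was 3.61, 2.99 and 3.98 on DHT replicates 1, 2 and 3, the same order as Cpa1, and its part was not tested. The summed linear level of the corpus luteum markers was 2767, 3223 and 988 on DHT replicates 1, 2 and 3, and each of the 4 was lowest on replicate 3, as Ctrb1 was. The theca cell markers had no common order, since Cyp17a1 was lowest on DHT replicate 3 while Insl3 and Nr2f2 were highest there, and their summed linear level was 2625, 1986 and 1508. The part of either list was not tested.

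Hardly any other product of acinar cells stood above background. Of 37 other genes in the lists of acinar proteases, lipases and other secretory proteins, 29 were measured. None was called higher in DHT ovaries by limma, against 0.68% of all probe sets, and 1 was called lower, against 0.351%. A call needed a fold change of at least 2, p of at most 0.01 and a false discovery rate of at most 10%. By limma 1 of the 29 had an unadjusted p under 0.05, and that was the gene called lower. The median difference of the 29 was -0.044, beside -0.029 over all probe sets. On all 8 arrays 25 of the 29 (86.2%) were near background, against 21.2% of the 14217 genes.

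The genes near background on every array include the most abundant messages of the pancreas. Among them were the trypsinogens Prss1 and Prss2, carboxypeptidase B1 (Cpb1), the elastases Cela1 and Cela2a, the chymotrypsin-like enzymes Ctrc and Ctrl, pancreatic lipase (Pnlip), its cofactor colipase (Clps) and bile salt-stimulated lipase (Cel). Leaving out Pla2g1b, the other 28 genes lay between 2.01 and 3.9 on every array. Their summed linear level was 157.6 to 159.3 on the DHT replicates, against 155.8, 156 and 186.1 on CTL replicates 1, 2 and 3. The highest of these sums was thus on CTL replicate 3, the array with the raised background level.

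**Figure D3:**
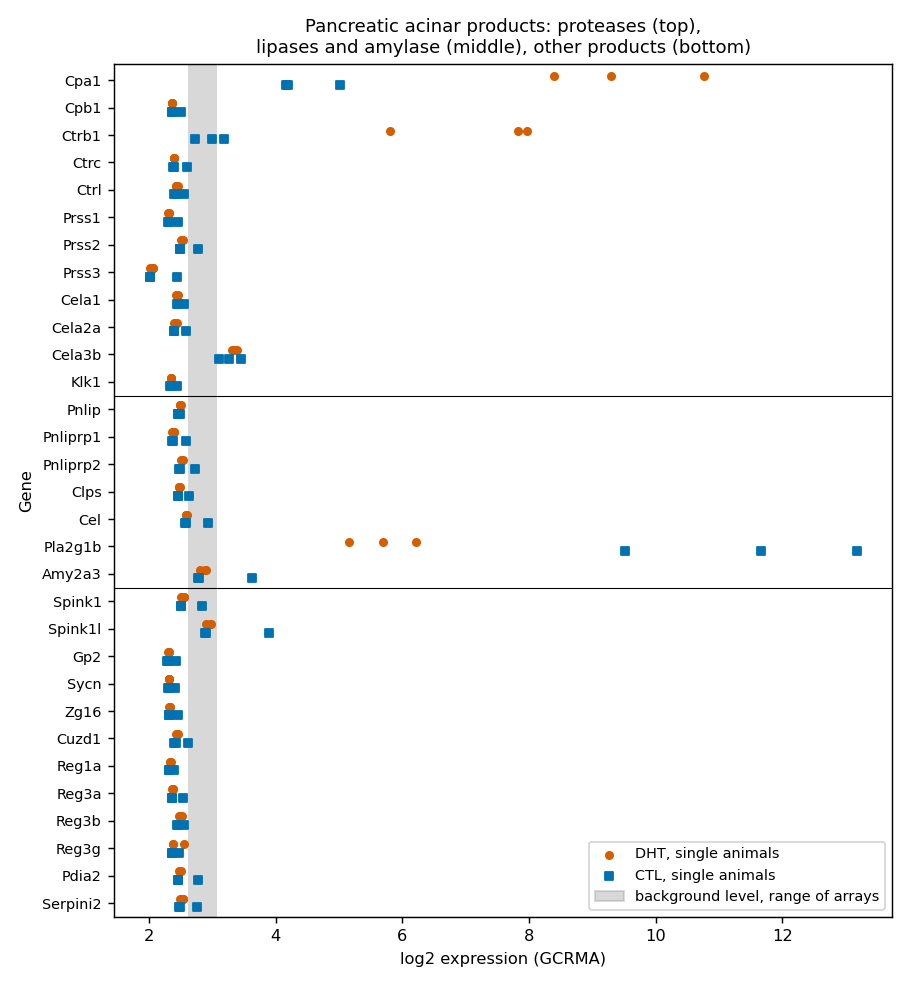
Log2 expression (horizontal axis) of Cpa1, Ctrb1 and the 29 other measured acinar products, 1 gene per row, with a point for each single animal, DHT above CTL, and the range of the arrays' background levels in grey. Cpa1 and Ctrb1 reach 10.77 and 7.97 in DHT ovaries, Pla2g1b reaches 13.18 in CTL ovaries, and 25 of the other genes are near background on all 8 arrays.

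The exception ran the other way. Pla2g1b, the secreted phospholipase A2 of pancreatic juice, had log2 values of 5.15, 5.69 and 6.21 on DHT replicates 1, 2 and 3, against 11.66, 13.18 and 9.52 on CTL replicates 1, 2 and 3. The groups did not overlap, and the gene was called lower, with a difference of -5.77 (SE 0.97, adjusted p = 0.0949 by limma). The call was kept without CTL replicate 3 and lost without any other single replicate, at adjusted p of 0.145 to 0.34. Over the DHT animals Pla2g1b was highest on replicate 3 and lowest on replicate 1, which is the order of neither Cpa1 nor Ctrb1.

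The 3 remaining acinar products above background on some array did not pass. Cela3b, a pancreatic elastase, had 3.39, 3.34 and 3.31 in DHT, against 3.26, 3.45 and 3.1 in CTL ovaries, a difference of 0.08 (adjusted p = 0.896). Amy2a3, a pancreatic amylase, was 2.81 to 2.9 in DHT ovaries and 2.79, 2.77 and 3.63 in CTL ovaries. Spink1l, named as a relative of the trypsin inhibitor Spink1, was 2.9 to 2.98 in DHT ovaries and 2.9, 2.88 and 3.9 in CTL ovaries. Amy2a3 and Spink1l thus stood out only on CTL replicate 3, and both had an adjusted p of 0.896.

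Of the factors and receptors that set the acinar programme, 11 of 13 were measured and 1 was called, higher in DHT, beside 0.68% of all probe sets. Ptf1a, Bhlha15 (Mist1, which drives acinar secretory maturation) and Pdx1 were near background on all 8 arrays, as were Onecut1, Chrm3 and Sctr. Ptf1a was 2.46 to 2.48 on the DHT replicates and 2.46, 2.45 and 2.85 on CTL replicates 1, 2 and 3. Gata4, a zinc finger factor of pancreas progenitors that is also a well known factor of granulosa and theca cells, was 8.68, 8.46 and 9.02 in DHT, against 6.58, 6.72 and 5.57 in CTL ovaries. The difference was 2.43 (SE 0.35, adjusted p = 0.0745 by limma), and the groups did not overlap. This call too was lost without any single replicate other than CTL replicate 3, at adjusted p of 0.131 to 0.297. Nr5a2 (LRH-1), which acts in acinar and in granulosa cells, had 7.13, 6.85 and 7.52 in DHT, against 7.24, 7.45 and 6.14 in CTL ovaries (adjusted p = 0.896). Gata6 (-1.29, adjusted p = 0.485), Nr0b2 (0.43, adjusted p = 0.58) and Xbp1 (0.34, adjusted p = 0.896) were not called.

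Markers of other pancreatic cells were low or did not pass. All 11 measured islet genes were near background on all 8 arrays, with values of 2.09 to 2.89, the brightest being the granule protein Chga. Of the duct epithelium list 6 of 8 genes were measured and 0 were called, beside 1.03% of all probe sets. None of the 6 had an unadjusted p under 0.05 by limma, beside 11.9% of all probe sets. The brightest, Krt19, a keratin of simple epithelia, had a difference of 0.68 (adjusted p = 0.794). The intestine and liver list and the adipose list also had 0 calls, with 4 of 5 and 5 of 6 measured genes near background on all 8 arrays. The exceptions were the lipoprotein gene Apoa1 (-0.37, adjusted p = 0.6) and the adipocyte protease Cfd (-0.98, adjusted p = 0.781). Tekt1, a protein of cilia and the brighter of 2 measured oviduct genes, had -0.04 (adjusted p = 0.941).

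Of 13 other metallocarboxypeptidases, relatives of Cpa1 outside the pancreas, 12 were measured and 0 were called, beside 1.03% of all probe sets. By limma 0 of the 12 had an unadjusted p under 0.05, beside 11.9% of all probe sets. Carboxypeptidase D (Cpd), which trims peptides in the trans-Golgi network, was the brightest, at 8.9, 9.14 and 8.62 in DHT, against 9.21, 9.16 and 7.96 in CTL ovaries (adjusted p = 0.914). Carboxypeptidase E (Cpe), which finishes peptide hormones, had a difference of 0.47 (adjusted p = 0.896). Cpa3, the mast cell carboxypeptidase, and Cpa4 were near background on all 8 arrays, together with Cpb2, Cpn1 and Cpxm2. Of 9 measured mast cell genes, which include the chymotrypsin-like chymases, 7 were near background on all 8 arrays and 0 were called. The brightest were Ms4a2, a chain of the IgE receptor, at 2.72 to 2.76 in DHT and 2.66 to 3.2 in CTL ovaries, and Hdc, which makes histamine, at 2.74 to 2.93 in DHT and 2.73 to 2.93 in CTL ovaries.

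Of the proteins that bind or sense such proteases, 8 of 9 were measured and 0 were called, beside 1.03% of all probe sets, and 1 had an unadjusted p under 0.05 by limma. Latexin (Lxn), an inhibitor of carboxypeptidases of the A type, was 5, 4.87 and 5 in DHT, against 5.57, 5.02 and 4.68 in CTL ovaries (adjusted p = 0.896). Alpha-2-macroglobulin (A2m), which traps proteases of many kinds, was 5.27, 5.28 and 3.18 in DHT, against 9.79, 11.92 and 8.93 in CTL ovaries. Its groups did not overlap, but its difference of -5.63 (SE 0.99, adjusted p = 0.104 by limma) did not pass, and passed without CTL replicate 3 (adjusted p = 0.0565). The thrombin receptor F2r was the brightest of the receptors, with a difference of 0.02 (adjusted p = 0.983), and the trypsin-sensing receptor F2rl1 was near background on all 8 arrays.

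The tissue itself read as ovary. The granulosa cell factor Foxl2 was 8.64 to 8.91 in DHT and 8.42 to 8.81 in CTL ovaries, with a difference of 0.09 (adjusted p = 0.896). Inha, the inhibin subunit of granulosa cells, was 11.83 to 12.08 in DHT and 9 to 10.99 in CTL ovaries, and its difference of 1.79 did not pass (adjusted p = 0.265). The other measured granulosa cell genes did not pass either, with 0.97 for the hormone Amh (adjusted p = 0.238) and, in the other direction, -2.91 for the aromatase Cyp19a1 (adjusted p = 0.404). All 3 theca cell markers had higher means in DHT, as Cpa1 and Ctrb1 had, and Insl3, a peptide hormone of theca cells, was called, at 6.31, 6.19 and 6.99 in DHT, against 3.9, 3.46 and 2.79 in CTL ovaries (difference 3.11, SE 0.36, adjusted p = 0.0575 by limma). The Insl3 call was lost without CTL replicate 2 or any DHT replicate, at adjusted p of 0.133 to 0.265. The summed linear level of the theca list was 1508 to 2625 in DHT and 400.8 to 778.1 in CTL ovaries.

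The 4 measured corpus luteum genes had lower means in DHT and 0 were called, beside 1.03% of all probe sets. Their summed linear level was 988 to 3223 in DHT and 5666 to 16450 in CTL ovaries. Star, which carries cholesterol into mitochondria for steroid synthesis, had a difference of -3.75 (SE 0.97, adjusted p = 0.21), and Prlr, the prolactin receptor, had -1.28 (adjusted p = 0.456). Of the 5 measured oocyte genes 1 was called, beside 1.03% of all probe sets, with a list median of -0.004. It was Zp2, a protein of the egg coat, higher with 1.55 (SE 0.25, adjusted p = 0.087), a call lost without any single replicate other than CTL replicate 3, at adjusted p of 0.156 to 0.299. The others differed by -0.09 (Gdf9) to 0.22 (Zp3). Myh6, a cardiac myosin heavy chain, was 11.68, 11.25 and 11.6 in DHT, against 5.65, 7.38 and 9.26 in CTL ovaries. Its difference was 4.08 (SE 0.92, adjusted p = 0.16, and 0.0349 without CTL replicate 3). Of the 7 measured muscle genes 3 were near background on all 8 arrays and 0 were called, beside 1.03% of all probe sets. The list median was -0.03. Tnnt2 (0.67, adjusted p = 0.145) and Tnni3 (1.17, adjusted p = 0.57) were, like Myh6, higher in every DHT than in every CTL animal, beside 10.6% of all probe sets. The part of these cell types in the levels of Cpa1 and Ctrb1 was not tested.

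The genes most like the pair were sought by the distance between profiles over the 6 single-animal arrays, each centred on its mean, among 14215 other genes. The points share the same arrays, and a gene that separates the groups scores well by that alone, so these values are descriptions. Cpa1 and Ctrb1 lay 1.43 apart (root mean square, log2 units), with 11 genes closer to Cpa1 than Ctrb1 was and 50 closer to Ctrb1 than Cpa1 was. The 8 genes closest to the mean of the pair, at 0.87 to 1.07, were Mest, Insl3, Dhx34 (an RNA helicase), Mfsd4a (a membrane transporter), Wfdc10a, Styxl2, Aldh1b1 (a mitochondrial aldehyde dehydrogenase) and Myom2 (a myomesin of muscle). Their Pearson r with that mean was 0.896 for Styxl2 to 0.992 for Dhx34.

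The 5 genes closest to each member shared 1 gene, Dhx34, in lists drawn up after the values had been seen. Closest to Cpa1 were Mest (0.74, r = 0.987), Insl3 (1.14), Endou (1.23), Stc1 (1.25) and Dhx34 (1.28). Closest to Ctrb1 were Crym (0.91, r = 0.992), Cdh1 (0.95), Dhx34 (0.98), Cyp17a1 (1.05) and Mfsd4a (1.1). Cdh1, the adhesion protein E-cadherin, had 8.34, 8.92 and 4.32 in DHT, against 3.16, 4.49 and 3.83 in CTL ovaries. Cyp17a1, the theca enzyme that makes androgen precursors, had 10.78, 9.95 and 7.62 in DHT, against 7.96, 6.91 and 5.52 in CTL ovaries. Both were lowest in DHT replicate 3 among the DHT animals, as Ctrb1 and Crym were. Dhx34, at 6.29, 6.34 and 6.38 on DHT replicates 1, 2 and 3, and Mfsd4a, at 7.05, 6.75 and 6.96, were not. Stc1, the secreted glycoprotein stanniocalcin 1, was highest on DHT replicate 3, at 8.07, 7.6 and 9.94 on DHT replicates 1, 2 and 3.

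**Figure D4:**
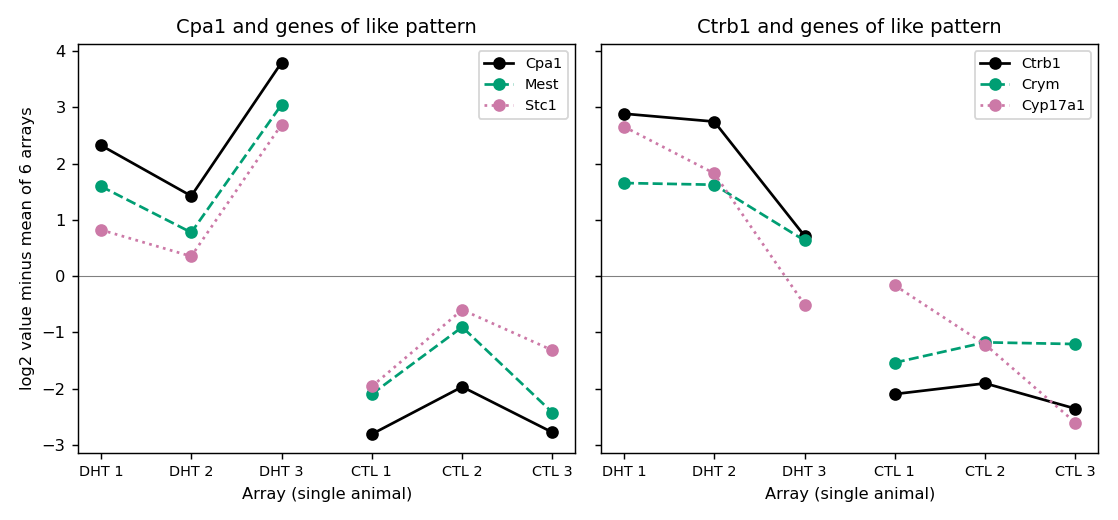
Log2 values minus the mean of the 6 single-animal arrays, for Cpa1 with Mest and Stc1 (left) and for Ctrb1 with Crym and Cyp17a1 (right), DHT animals left of CTL animals, with lines that only join the values of 1 gene within a group. Among the DHT animals replicate 3 is the highest for the genes on the left, with Cpa1 at 10.77 before centring, and the lowest for those on the right, with Ctrb1 at 5.8.

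Mest was the gene closest to Cpa1 and is also its near neighbour in the genome. Mest is an imprinted gene in mouse and human, read from the paternal copy. It had 9.38, 8.56 and 10.83 on DHT replicates 1, 2 and 3, against 5.69, 6.88 and 5.36 on CTL replicates 1, 2 and 3. The groups did not overlap, and the difference of 3.62 (SE 0.71, adjusted p = 0.124 by limma) did not pass. Relative to its group means Mest was -0.21, -1.03 and 1.24 in DHT and -0.29, 0.91 and -0.62 in CTL, against -0.19, -1.09 and 1.28 in DHT and -0.29, 0.55 and -0.26 in CTL for Cpa1. By these deviations alone, which leave out the difference between the groups, Mest was the second closest of 14215 genes to Cpa1 (0.21), after Gadd45g (0.12), and ranked 14125 of 14215 for Ctrb1. By Pearson r over the 6 arrays 23 genes were above Mest. Both genes rested on 1 probe set each.

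Of the 6 protein-coding genes on either side of Cpa1 in the GRCr8 gene order, 7 of 12 were measured and 0 were called, beside 1.03% of all probe sets. Mest is the second gene from Cpa1 on its side, and Cep41, a cilium protein that lies between them, had a difference of 0.26 (adjusted p = 0.805). Cpa4, on the other side, was near background on all 8 arrays, Tmem209 had 0.36 (adjusted p = 0.896) and Copg2, a coat protein of Golgi vesicles, had 0.49 (adjusted p = 0.886). Around Ctrb1, 9 of 12 neighbours were measured and 0 were called. Bcar1, a scaffold protein of cell adhesion sites, was lower in every DHT than in every CTL animal, with -0.95 (SE 0.22, adjusted p = 0.166), and Cfdp1, a chromatin protein, was higher in every DHT animal, with 0.32 (adjusted p = 0.46). Over all probe sets, 6.85% had all DHT animals below all CTL animals.

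**Figure D5:**
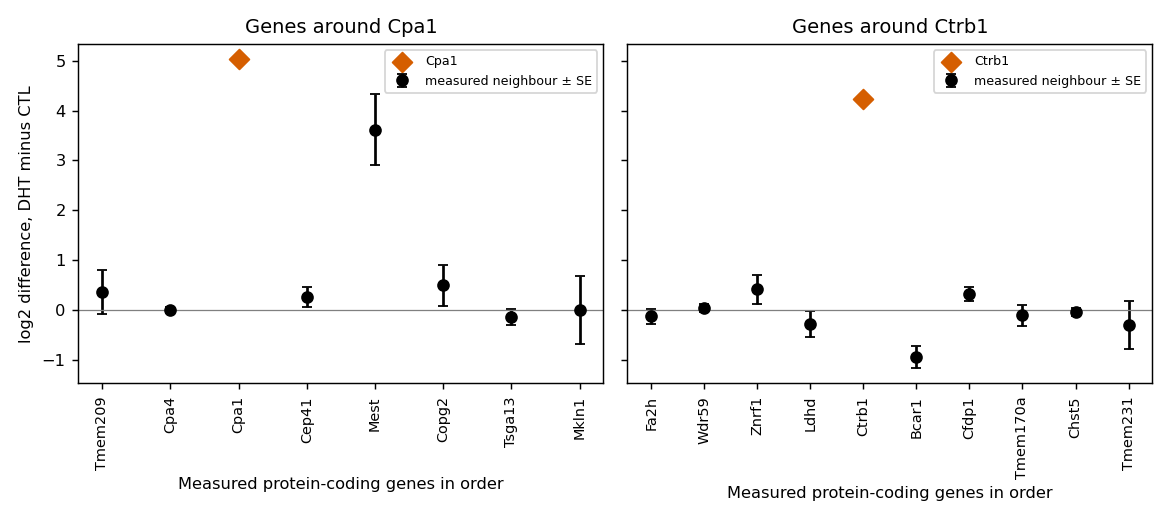
Difference of means in log2 units, DHT minus CTL, of Cpa1 and Ctrb1 and of those measured among the 6 protein-coding genes on either side of each, evenly spaced in gene order (bars show the SE of the limma fit). Mest, at 3.62, is the neighbour closest to Cpa1 in size, and the measured neighbours of Ctrb1 lie near 0 or, for Bcar1, at -0.95.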

How the data were processed

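Total RNA of ovarian cortex was hybridized to an Affymetrix rat genome array, which reads transcripts near their 3' end. The authors made the values with GCRMA, so the deposited numbers are log2 units, 1 per probe set and array. The submitters' processing notes name GCRMA and limma, and their versions are not given in the sources used here. No scanner data were processed here, and the number of arrays limits the precision.

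Symbols came from the array annotation. Of 31099 probe sets, 57 controls were left out, and of the 31042 others 20826 carry 1 symbol, 436 several and 9780 none here. By Entrez gene, 20764 matched the RefSeq gene table of GRCr8. Where a gene has several probe sets, the one brightest on average over the 6 single-animal arrays was taken. These arrays were fitted by limma 3.58.1 (lmFit, eBayes) under R 4.3.3, 3 DHT against 3 CTL, with Benjamini-Hochberg adjustment over 31042 probe sets. Every adjusted p is from this fit unless another setting or a left-out replicate is named beside it. By these criteria 320 probe sets (1.03%) were called, 211 higher and 109 lower. The replicates are separate animals. The method was tested on simulated data.

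The members, gene lists and tests were chosen with earlier results of these data known. Named are the members, acinar genes called or above background on some array, the called and the brightest 1 or 2 genes of the other lists, and the 8 genes closest to the mean of the pair. Genes closest to 1 member, neighbours and motifs were chosen after values were seen. Alternatives were the pooled arrays as replicate 4, median scaling, quantile normalization, dim probe sets removed, the mean of a gene's probe sets, a mean-variance trend, a replicate block, a 5% threshold without fold, and each replicate left out.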

Additional observations from a re-analysis of the deposited data

Results flagged for a closer look

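The arrays of pooled RNA stood outside the comparison of single animals, and both genes gave a signal there above the control pool. Cpa1 was 5.11 higher on the pooled DHT array than on the pooled CTL array, in log2 units, and Ctrb1 was 4.66 higher. The pools hold RNA of the same animals, so these values were not tested. Groups of 3 animals are too small for a check of single outlying samples.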

How the results depend on the processing

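The differences of Cpa1 and Ctrb1 kept their direction under every alternative run for them. With the arrays of all 6 animals they were 4.95 to 5.09 for Cpa1 and 4.17 to 4.34 for Ctrb1. Between the arrays of pooled RNA alone they were 5.11 for Cpa1 and 4.66 for Ctrb1. With 1 replicate left out they were 4.39 to 5.57 for Cpa1 and 3.84 to 4.93 for Ctrb1. The 1 call among other acinar products, Pla2g1b, was 0 with median scaling, with a replicate block, with a mean-variance trend and at an adjusted p of 0.05 without a fold minimum, and 0 to 1 with 1 replicate left out. The 320 calls over all probe sets became 966 with the pooled arrays as replicate 4 (55.2% higher, against 65.9%), 173 with quantile normalization (50.3% higher), 61 with the trend (34.4% higher), 29 at an adjusted p of 0.05, and 0 with the replicate block. The pooled arrays repeat RNA of the same animals, so as replicate 4 they are not independent and adjusted p comes out too small. With dim probe sets left out there were 441 calls. With 1 replicate left out there were 0 to 1622. Leaving out CTL replicate 3 gave 1622, leaving out CTL replicate 1 gave 181, leaving out CTL replicate 2 gave 92, and leaving out any DHT replicate gave 0. The cause was not tested. Gata4 and Zp2 were also not called with median scaling, the trend or the replicate block, nor Zp2 with quantile normalization (adjusted p = 0.142), nor Insl3 with the block (adjusted p = 0.187). Mest passed with the pooled arrays as replicate 4 (adjusted p = 0.0163) and with dim probe sets left out (0.0925), as A2m did in both and without CTL replicate 3 (0.0565). With the pooled arrays as replicate 4, which add no animal, adjusted p was also 0.0159 for Bcar1, 0.0167 for Myh6 and 0.0258 for Star. Cdh1 (0.0949), Endou (0.0288), Stc1 (0.0408), Styxl2 (0.0163) and Myom2 (0.0188) passed in that setting too. Styxl2 also passed without CTL replicate 3 (0.0556) and Myom2 without CTL replicate 1 (0.0778). The block used replicate numbers that do not mark shared animals, with r of -0.07, 0.44 and 0.34 between the deviations of same-numbered samples. Values near background limit what can be read for Ctrb1 in CTL ovaries and for 25 acinar genes, and with 3 animals per group the spread of Cpa1 and Ctrb1 in DHT ovaries is known only roughly.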

Other observations

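Among probe sets without a single symbol, 1 with no symbol here lay 0.73 from Cpa1, closer than any named gene, with 7.57, 6.49 and 8.72 on DHT replicates 1, 2 and 3, against 2.73, 4.21 and 4.24 on CTL replicates 1, 2 and 3. A probe set that carries both Myh7 and Myh6 lay closest to Ctrb1, at 0.68. Both were chosen after their values were seen. By deviations from the group means alone, the genes closest to Ctrb1 were Agtr2 (0.12), a receptor for angiotensin II, Sftpc (0.14), Angpt2 (0.18), a regulator of blood vessels, Nicol1 (0.2) and Oas1a (0.21), and after Gadd45g and Mest those closest to Cpa1 were Stc1 (0.23), Colec11 (0.25) and Ptges (0.3). These distances are over the same 6 arrays and were not tested.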
